A study of Mus musculus with 18 samples.

Results

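The wide distal open regions of the mouse retina were the widest regions away from transcript starts after ATAC-seq peaks of all libraries were merged. Peaks of the 18 libraries that shared 1 bp or more were joined into merged regions, and these were chosen by width, number of libraries and distance from a start: a merged region was kept when it was at least 1200 bp wide, was called in at least 2 libraries, and had a median summit more than 2.5 kb from every transcript start of the GENCODE M21 basic set on mm10. In all, 768 regions met this rule, of 99792 merged regions and of the 73567 that were called in at least 2 libraries. The values used for this choice are given below only as a description. ATAC-seq uses a transposase that inserts sequencing adapters into open chromatin. Each library was prepared from the whole retina of mice that the labels give as wild type. The libraries formed 6 groups of 3, namely untreated, contralateral and IOP retinas at 3 months (3mo) and at 18 months (18mo) of age. IOP retinas came from eyes held at a hydrostatic pressure of 30 mmHg for 1 hour in 1 eye of each animal, and the contralateral retinas came from the opposite eye, which received no pressure, both taken on day 2 per the labels. Untreated retinas came from animals that the labels call untreated. The labels carry a shared text on dasatinib, a kinase inhibitor, but place no library in a drug arm, and a shared preparation text on crosslinking and immunoprecipitation, whereas the study's methods describe transposition of nuclei. They do not say whether the replicates of a group were separate animals, so that p-values measure the spread between these libraries. The whole retina holds every retinal cell type in 1 suspension, most of it rods.

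Most of the DNA of a cell is wrapped around nucleosomes, and stretches kept free of them mark promoters, enhancers, insulators and other sites bound by proteins. In photoreceptors, the homeodomain factors Crx and Otx2 bind enhancers through the core TAATCC, together with the rod factor Nrl, Mef2 factors and nuclear receptors. Wide open regions are usually found at CpG-rich promoters, and a wide open region far from a start can be an enhancer with several binding sites, an unannotated promoter, or a transfer RNA (tRNA) gene, which RNA polymerase III transcribes from a promoter inside the gene.

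The sequences around the summits of 8 regions that recur below are shown first, because they represent the different kinds of DNA that the rule collected. Each one is the plus strand of mm10 (GRCm38), 200 bp centred on the median summit. In the regions nearest to Rcvrn, Crx and Esrrb, which are photoreceptor genes, and to Galntl6, Gse1 and Glis2, capitals mark matches on either strand to 1 of 11 motifs that were searched, so that GGATTA is TAATCC read on the other strand. The window nearest to Pmepa1 held none of these motifs.
Rcvrn, intron of Gas7 and Glp2r, chr11:67681979-67682178: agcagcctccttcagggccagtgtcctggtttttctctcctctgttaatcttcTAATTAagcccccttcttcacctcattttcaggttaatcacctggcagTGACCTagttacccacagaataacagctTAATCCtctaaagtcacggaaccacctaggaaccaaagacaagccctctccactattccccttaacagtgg
Crx, intergenic, chr7:15864239-15864438: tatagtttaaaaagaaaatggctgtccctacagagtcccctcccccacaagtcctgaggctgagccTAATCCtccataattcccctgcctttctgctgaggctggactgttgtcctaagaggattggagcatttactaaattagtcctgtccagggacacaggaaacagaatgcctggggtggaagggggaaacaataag
Esrrb, intron, chr12:86507771-86507970: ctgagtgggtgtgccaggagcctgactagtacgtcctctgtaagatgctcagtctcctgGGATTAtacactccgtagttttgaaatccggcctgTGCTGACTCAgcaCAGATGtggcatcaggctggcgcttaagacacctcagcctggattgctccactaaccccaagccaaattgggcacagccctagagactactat
Galntl6, intron, chr8:57837449-57837648: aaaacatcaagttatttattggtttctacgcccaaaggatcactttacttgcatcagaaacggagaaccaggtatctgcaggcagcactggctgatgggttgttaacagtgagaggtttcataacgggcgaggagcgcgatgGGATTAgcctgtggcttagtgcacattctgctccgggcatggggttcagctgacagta
Gse1, intron, chr8:120425815-120426014: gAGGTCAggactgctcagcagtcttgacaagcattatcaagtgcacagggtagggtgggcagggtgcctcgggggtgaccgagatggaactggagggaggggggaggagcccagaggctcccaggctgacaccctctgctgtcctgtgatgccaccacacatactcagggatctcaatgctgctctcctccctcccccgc
Glis2, intergenic, chr16:4586631-4586830: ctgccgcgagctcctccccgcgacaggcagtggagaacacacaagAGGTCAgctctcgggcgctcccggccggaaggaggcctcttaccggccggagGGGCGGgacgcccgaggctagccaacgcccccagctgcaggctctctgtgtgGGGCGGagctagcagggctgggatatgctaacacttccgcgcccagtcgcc
Pmepa1, intergenic, chr2:173334848-173335047: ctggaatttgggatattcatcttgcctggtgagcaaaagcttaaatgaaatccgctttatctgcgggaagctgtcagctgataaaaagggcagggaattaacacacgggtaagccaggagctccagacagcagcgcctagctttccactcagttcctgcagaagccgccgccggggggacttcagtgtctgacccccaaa
The last window, 300 bp wide, lies in the region nearest to Hfe2, and its capitals mark the bases of a tRNA-His gene, which is transcribed from the minus strand and runs on beyond the window.
Hfe2, intergenic, chr3:96500379-96500678: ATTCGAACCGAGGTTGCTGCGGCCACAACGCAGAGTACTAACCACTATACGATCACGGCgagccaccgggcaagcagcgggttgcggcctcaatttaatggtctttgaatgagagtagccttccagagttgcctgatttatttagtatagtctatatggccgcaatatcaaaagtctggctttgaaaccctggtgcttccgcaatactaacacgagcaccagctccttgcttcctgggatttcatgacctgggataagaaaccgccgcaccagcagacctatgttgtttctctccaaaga
Of the motifs, the Rcvrn window held TAATTA, the nuclear receptor half-site AGGTCA on the minus strand, and the Crx and Otx2 core TAATCC. The Esrrb window held the same core, the basic helix-loop-helix motif CAGATG and the Nrl motif TGCTGAC, which overlapped an AP-1 motif. The Crx and Galntl6 windows held the Crx and Otx2 core alone. The Gse1 window held the nuclear receptor half-site, and the Glis2 window held it together with GGGCGG, the core of SP and KLF sites, at 2 places.

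The 768 regions had a median width of 1379.5 bp, with quartiles of 1281 bp and 1570 bp and a maximum of 2679 bp. At the width limit, the regions nearest to Gm10037 and Gm30083 were 1200 bp wide and were kept, whereas those nearest to Zfp385b and Inpp4b, at 1199 bp, were not. At the distance limit, the summit of the region nearest to Casz1 lay 2532 bp from a start and was kept, and those nearest to Kcnn1 and Tnks1bp1, at 2486 bp and 2490 bp, were not. By position, 370 regions (48.2%) lay in introns, 345 (44.9%) between genes and 53 (6.90%) in exons. The narrower distal regions were more often intronic (58.6%) and less often intergenic (36.7%), as shares without a test. The median distance from a protein-coding start was 25026 bp, 221 regions lay more than 50 kb away and 93 more than 100 kb away. The regions were spread over the genome, with the largest number, 59, on chromosome 2, and 112 had another wide distal region within 50 kb.

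The name distal held only for the annotation used. Of the 768 regions, 116 (15.1%) lay within 2.5 kb of a start in the comprehensive GENCODE M21 set, and 119 (15.5%) lay within 1 kb of a RefSeq start. Of the narrower distal regions, 8.57% and 3.80% did so. The RefSeq starts include those of tRNA genes, so that the 19 wide distal regions near such a gene, described below, are among the 119. Only 9 wide distal regions were repeat-masked over more than 50% of their length, and none held mitochondrial-like sequence.

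Nearly all wide distal regions were open in every library. Of the 768, 735 (95.7%) were called in all 18 libraries, compared with 21.2% of the 50185 narrower distal regions and 97.5% of the 4267 regions of at least 1200 bp near a start. A wide merged region has more room to be hit by a peak, so that this share depends in part on the rule. Each library called between 751 and 768 of them. Their peaks were also strong when ranked by the peak caller's −log10 q within each library. The strongest peak of a region lay at a median percentile of 77.4. It lay at 62.3 for the 10633 narrower distal regions called in every library and at 87.3 for the wide regions near a start. Taking the strongest peak favours regions that hold several peaks, so that this rank also depends in part on the rule. The median fold, the caller's ratio of summit pileup to local background, hardly differed between the distal sets. It was 7.98 in the wide distal regions, 7.78 in the narrower called in every library and 9.67 in the wide regions near a start.

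The libraries differed in how much of each region they covered. Untreated retinas covered fewer base pairs of these regions, and in more pieces, than contralateral and IOP retinas. This is in part fixed by the rule, since the widths came from the contralateral and IOP lists: merging those alone gave 758 wide distal regions and merging the untreated lists alone gave 38, both chosen after seeing the data. The values are therefore a description. The covered length per region averaged 596 ± 52.3 bp (SD, n = 3) in 3mo untreated retina and 706 ± 13.1 bp in 18mo untreated retina. It averaged 1030 ± 10.6 bp and 1037 ± 106 bp in 3mo and 18mo contralateral retina, and 1041 ± 73.8 bp and 976 ± 96.4 bp in 3mo and 18mo IOP retina. The untreated libraries, at 562 to 717 bp, did not overlap the others, at 900 to 1158 bp. The shortest peak listed moved with this split: it was 79 to 89 bp long in the untreated libraries, 114 to 122 bp in 5 contralateral or IOP libraries and 148 to 157 bp in the other 7, and each of these 4 groups held both classes. The libraries with a shorter shortest peak cut the regions into more peaks, 1.71 to 1.93 per region in untreated retina, 1.57 to 1.61 in the 5 libraries and 1.26 to 1.34 in the 7. Peaks per library ranged from 36011 to 66160. The part of peak calling and that of the animals in this split cannot be told apart, since the labels give no date or batch and the lists hold no read counts.

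**Figure D1:**
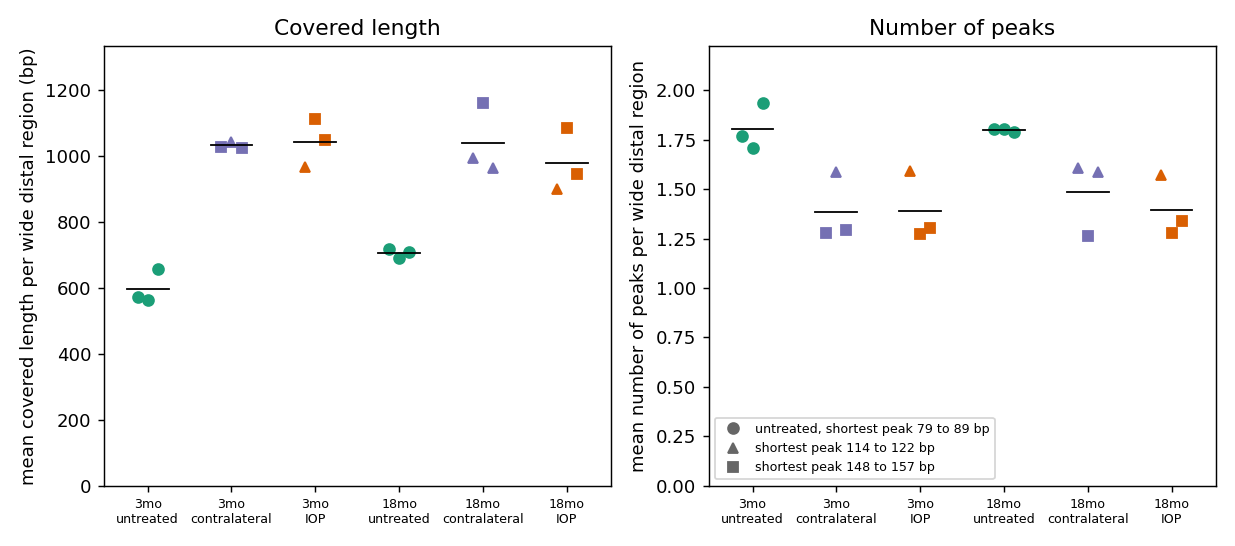
Mean covered length in bp (left) and mean number of peaks (right) per wide distal region in each of the 18 libraries. Points are libraries, bars are group means, and symbols give the length of the shortest peak in the library's list. The untreated libraries lie between 562 and 717 bp and all others between 900 and 1158 bp.

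The profile around the median summit showed where the cover was lost. At the summit, a peak covered 89.7% of the regions in 3mo untreated retina, the lowest group, and 96.5% in the highest. At 500 bp upstream, the cover was 16.4% in 3mo untreated and 22.6% in 18mo untreated retina, compared with 47.6% and 49.5% in contralateral and 48.2% and 42.6% in IOP retina of the 2 ages. The groups thus differed little at the centre and more on the flanks. In a single library, at least 1200 bp were covered in 4.04% of the regions in untreated, 28.2% in contralateral and 27.0% in IOP retina, so that most widths were widths of the merged region and not of 1 peak. When at least 1200 bp had to be covered in at least 2 libraries, 532 of the 768 regions were left. The summits called in the different libraries were spread over a median of 741 bp within a region.

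**Figure D2:**
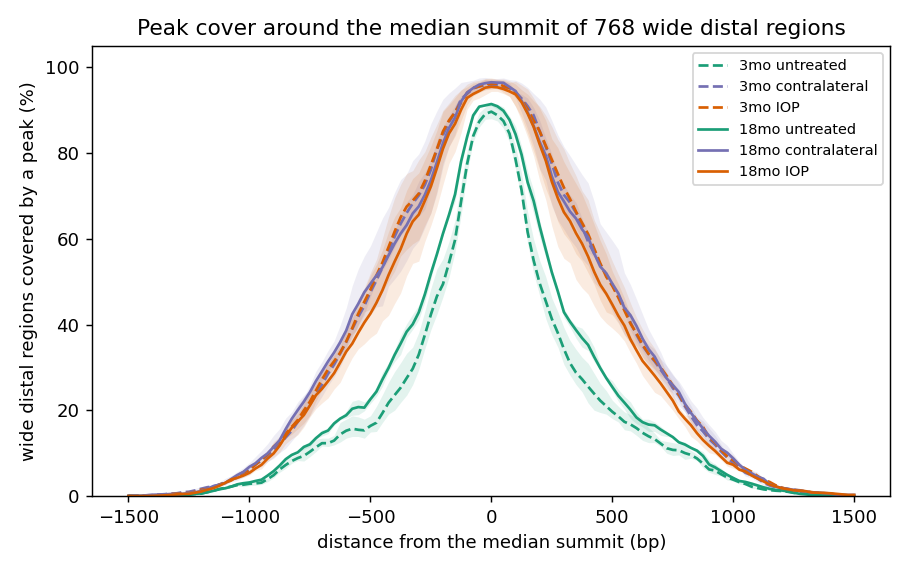
Share of the 768 wide distal regions covered by a peak (vertical axis, %) at each distance from the median summit (horizontal axis, bp). Lines are means of 3 libraries per group and bands run from the lowest to the highest library. The 2 untreated groups fall off faster on both sides, to 16.4% and 22.6% at 500 bp upstream.

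The 6 widest regions were of different kinds. The widest, 2679 bp on chromosome Y nearest to Gm21860, was covered over 162 bp in the lowest library, 745 bp in the median and 2277 bp in the highest. The intronic region of 2523 bp nearest to Gse1 (chr8:120425142-120427664) overlapped a tested VISTA enhancer, mm1674. It was covered over 446 to 818 bp in the 6 untreated libraries, 1256 to 2117 bp in the 6 contralateral and 1745 to 2017 bp in the 6 IOP libraries, so that the untreated libraries lay below all others. The regions nearest to Rnase12, at 2484 bp, and to Hfe2, at 2475 bp, held tRNA genes. The region nearest to Cpne7, which encodes a calcium-binding copine, was 2289 bp wide and covered over 401 to 2136 bp. The region in an exon of Fam186a, at 2276 bp, was covered over 426 to 1850 bp and had a TAATCC match at its summit.

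By strength, the top regions were nearest to Dnajc3, which encodes a co-chaperone of the endoplasmic reticulum, and Glis2, a zinc-finger factor, at mean percentiles of 99.5 and 99.4. They were followed by the regions nearest to Mef2c at 98.5, Ccne1 at 98.0, Zfp395 at 97.9 and Hspb1 at 97.5. The Dnajc3 region lay in an exon of Uggt2, and the Mef2c region lay 169444 bp from the Mef2c start and 6307 bp from that of the microRNA gene Mir9-2. All 6 were called in all 18 libraries, and their covered length stayed between 636 and 1227 bp at Dnajc3, between 721 and 1241 bp at Glis2 and between 1013 and 1370 bp at Zfp395. The matches of 4 of them, at Glis2, Ccne1, Zfp395 and Hspb1, included GGGCGG.

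Wide distal regions were intermediate in CpG content. CpG dinucleotides occurred at a median of 0.297 of the number expected from base composition, compared with 0.218 in narrower distal regions and 0.768 in wide regions near a start. The ratio was above 0.6, a level usual for CpG islands, in 130 wide distal regions (16.9%), in 3.82% of the narrower distal regions and in 83.1% of the wide regions near a start. An enhancer listed in RefSeq, all from the VISTA collection, was overlapped by 13 wide distal regions (1.69%), 0.494% of the narrower distal regions and 0.164% of the wide regions near a start. A wide region has more room to overlap an element than a narrower one, so that the first 2 shares depend in part on the rule.

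Motifs were searched on both strands of the 200 bp around the median summit. The photoreceptor core TAATCC was found in 199 wide distal regions (25.9%, 95% Clopper-Pearson interval 22.8% to 29.2%, counting error only). It was found in 18.2% of the narrower distal regions, 23.2% of those called in every library, 3.96% of the wide regions near a start and 15.3% of all regions called in at least 2 libraries. Around the strongest summit, the share was 28.3% of the wide distal regions, 18.1% of the narrower distal regions and 23.2% of those called in every library. The core was held by 195 of 638 wide distal regions with a CpG ratio of at most 0.6 (30.6%), but by 4 of 130 above it (3.08%). The other sets were split in the same way. Below and above that limit, the core was in 18.7% and 6.73% of the narrower distal regions. It was in 24.2% and 6.04% of those called in every library and in 11.1% and 2.51% of the wide regions near a start. AGGTCA, the half-site of nuclear receptors such as RORB, was found in 19.7% of the wide distal and 16.9% of the narrower distal regions, and the Mef2 motif in 4.82% and 2.85%. In the narrower distal regions called in every library, the shares were 17.5% for AGGTCA and 3.01% for Mef2. These are descriptions of letters, not of bound sites, and no test was made between the sets.

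Other motifs were held by fewer wide than narrower distal regions. CAGATG, bound by basic helix-loop-helix factors such as NeuroD1, was in 15.5% of the wide and 22.0% of the narrower distal regions, and in 19.9% of the narrower called in every library. The motif of CTCF, the insulator protein, was in 3.13% of the wide distal regions, 7.81% of the narrower and 14.1% of the narrower called in every library. GGGCGG behaved in the opposite way, at 21.7% of the wide distal, 7.30% of the narrower distal and 70.6% of the wide regions near a start. It was in 11.2% of the narrower distal regions called in every library. The stress-response motifs were also in a smaller share of the wide distal regions. The AP-1 motif TGANTCA was in 5.86% of the wide distal regions, 7.75% of the narrower and 6.10% of the narrower called in every library. The STAT motif TTCNNNGAA was in 3.78%, 4.75% and 4.26% of these sets. TGCTGAC was in 4.95% and 5.13% of the wide and narrower distal regions, TAATTA in 5.47% and 5.14%, and the palindromic NFI motif in 1.04% and 1.29%.

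**Figure D3:**
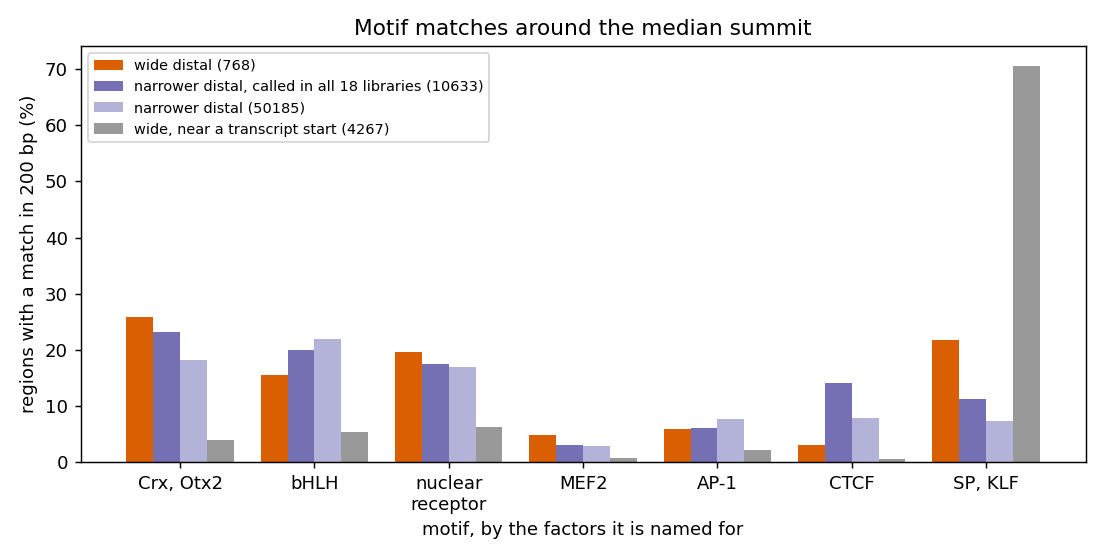
Share of regions with a motif match in the 200 bp around the median summit (vertical axis, %), for 7 motifs named by the factors that bind them, in 4 sets of regions given by colour with their numbers. The Crx and Otx2 core is found in 25.9% of the wide distal regions and 3.96% of the wide regions near a start, and the SP and KLF core in 21.7% and 70.6%.

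The wide distal regions were sorted into 4 kinds by annotation and CpG ratio. Those without any nearby start and with a ratio of at most 0.6 were the most frequent, 530 of 768 (69.0%), and 31.1% of them held TAATCC. Another 169 (22.0%) lay near a start of RefSeq or of the comprehensive GENCODE set, 50 (6.51%) were CpG-rich without such a start, and 19 (2.47%) lay within 1 kb of a tRNA gene. TAATCC was found in 31, 3 and 0 regions of these 3 kinds, and GGGCGG in 62, 30 and 4, against 71 regions (13.4%) of the CpG-poor kind.

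The tRNA genes gave the clearest annotated group. Only 0.209% of the narrower distal regions, 0.404% of those called in every library and 0.750% of the wide regions near a start lay within 1 kb of a tRNA gene, compared with 2.47% of the wide distal regions. Of 403 annotated tRNA genes on the main chromosomes, 36 overlapped a wide distal region, 47 a wide region near a start, 106 a narrower distal region and 238 any region called in at least 2 libraries. The Hfe2 region held 4 of them, for lysine, histidine, glycine and glutamate. The Rnase12 region held 3, for leucine, proline and threonine, and was covered over at least 1425 bp in every library. A region nearest to Cfap126 on chromosome 1 also held 4 tRNA genes, and the regions nearest to Atp5h and Aurkb held 3 each, all of those at Atp5h for arginine. The region nearest to Wnt11 at chr7:98814954-98816761 held 2 proline tRNA genes and was covered over 1283 to 1767 bp. All 19 regions were called in all 18 libraries, and their median CpG ratio was 0.725.

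The genes nearest to the wide distal regions were counted in 10 lists. Genes of rod phototransduction were nearest to 7 of the 768 regions (0.912%) and to 0.334% of all distal regions. Photoreceptor transcription factors were nearest to 8 (1.04%, against 0.440%), and injury and stress-response genes to 5 (0.651%, against 0.222%). Genes of synapses and neuronal adhesion were nearest to 3 regions (0.391%, against 0.803%), and cone phototransduction genes to none. Lists for bipolar cells, amacrine and horizontal cells, retinal ganglion cells and Müller glia had 2 regions each (0.260%, against 0.224%, 0.287%, 0.135% and 0.273%), and the list for pigment epithelium, microglia, vessels and lens had 1 (0.130%, against 0.110%), nearest to C1qa, a complement gene of microglia. In all, 32 regions (4.17%) were nearest to a gene of 1 of the 10 lists.

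The tissue label was checked with the same lists at transcript starts. A region called in all 18 libraries lay within 2.5 kb of a start for 27 of 27 rod genes and 16 of 16 photoreceptor transcription factors. The same held for 7 of 12 cone, 9 of 23 bipolar, 11 of 28 amacrine and horizontal, 6 of 21 ganglion cell and 18 of 28 Müller glia genes. It held for 4 of 26 genes of pigment epithelium, microglia, vessels and lens, namely Mitf, Best1 and Pmel of pigment epithelium and Kdr of vessels. Ttr had a region there in 17 libraries, while Rpe65, Tyr and Lrat of pigment epithelium, Cx3cr1 of microglia, Pecam1 of vessels and Cryaa of lens had one in 0.

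Among rod genes that were nearest to a wide distal region were Rdh12, a retinol dehydrogenase, Rcvrn, the calcium sensor recoverin, Slc24a1, the cation exchanger of rods, Abca4, a retinoid transporter, and Pde6a, a subunit of the phosphodiesterase. The Rdh12 region lay 34151 bp downstream of the Rdh12 start in an intron of Zfyve26, and the Abca4 region 17636 bp upstream of the Abca4 start. Only 3 wide distal regions lay in the body of a gene of the rod list. Among transcription factor genes, Casz1 had 3 regions and Crx, Mef2c, Mef2d, Thrb and Esrrb 1 each. The Crx region, 8049 bp downstream of the Crx start, was covered over 441 bp in the lowest, 531 bp in the median and 1102 bp in the highest library. The Thrb region lay 100714 bp upstream of the start.

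Near genes of other cell types, the region in an intron of Prkca, the kinase that marks rod bipolar cells, was covered over 385 to 1182 bp. The regions nearest to Slc6a9, the glycine transporter, and Ebf3, a factor of amacrine and ganglion cells, were stronger, at mean percentiles of 91.7 and 90.1, and both held TAATCC. The region nearest to Nefh, a neurofilament gene, was covered over 248 to 1054 bp, and that nearest to Sox4 over 218 to 1131 bp. Nfix, a factor of glia and amacrine cells, had an intronic region covered over 268 to 1167 bp, and Clu, which encodes clusterin, had one between genes covered over 310 to 1123 bp. The stress-response regions were nearest to Egr1, with 2, and to Fosb, Nfkbia and Hspb1, and 0 wide distal regions lay in the body of a gene of that list. The 3 regions on the synapse and adhesion list belonged to Cadm1, with 2, and Cadm2, both adhesion molecules of neurons, and those at Cadm1 had mean percentiles of only 58.7 and 47.3.

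Few genes had several wide distal regions. One such region was nearest to each of 612 genes, 2 to 59 genes, 3 to 7 genes and 4 to 3 genes, while 5 regions were nearest to Tbc1d22a, a member of the TBC-domain family of Rab regulators. These 5 stretched from 95540 to 644100 bp beyond its start, and 4 of them lay between genes. The genes with 4 were Bcor, a corepressor, Gse1 and Zfp36l2, an RNA-binding protein, and those with 3 included Casz1 and Elfn1, an adhesion molecule of rod synapses. All 3 Elfn1 regions held TAATCC, and 4 of the 5 Tbc1d22a regions did. At Bcor, 1 region at chrX:12005655-12007667 was covered over at least 1426 bp in every library, whereas the other 3 went down to 326 to 789 bp in their lowest library.

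The spread over libraries differed among regions. The smallest spread was found at the region 56754 bp upstream of Arid1a, a chromatin remodelling subunit, which was covered over 1405 to 1583 bp in all 18 libraries. It was followed by the regions nearest to Las1l, at 1221 to 1388 bp, and Plcb4, at 1402 to 1652 bp. The largest spread was found at the intronic region of Zfat, a zinc-finger factor, from 132 to 1565 bp. The region nearest to Wnt11 in an intron of Uvrag ranged from 161 to 1361 bp, and that nearest to Msra from 113 to 1109 bp. In the last 3, the low values were those of untreated libraries.

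Age was compared between 6 control retinas of 18mo and 6 of 3mo, contralateral and untreated together. The covered length of each region was taken as log2 minus the median over all tested regions of the library, and limma was fitted to all 27019 regions called in the 12 control libraries, with the kind of control as a term. Of the 768 wide distal regions, 740 entered the fit, and 3 passed an adjusted p of 0.05, 2 longer and 1 shorter at 18mo. Among all regions, 0.111% passed in either direction, 0.0703% as longer and 0.0407% as shorter. The median difference was 0.03 on the log2 scale in the wide distal regions and −0.02 in all regions. At an unadjusted p under 0.05, 90 wide distal regions (12.2%) were longer and 46 (6.22%) shorter at 18mo, compared with 5.19% and 5.04% of all regions. This split depended on the scaling and the libraries: without centring, 149 wide distal regions were longer and 13 shorter (2980 and 386 of all 27019), in contralateral controls alone 42 and 35 of 753 (911 and 860 of all 31344), and in the IOP libraries 41 and 46 of 753 (757 and 830 of all 28305). The control lists helped to set the widths that chose the regions, so that a region long at only 1 age could enter. The age counts and shares of the wide distal regions are therefore given as a description. The whole retina was used, so that a change in the share of a cell type and a change of chromatin within a cell type cannot be told apart.

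The region in an intron of Galntl6, a gene of the family of enzymes that start O-glycosylation, had the smallest adjusted p. In 3mo retina, it was covered over 279, 321 and 441 bp in untreated and 656, 703 and 690 bp in contralateral libraries. In 18mo retina, it was covered over 572, 694 and 726 bp and over 940, 1172 and 899 bp. Within each kind of control, the 18mo libraries lay above the 3mo libraries without overlap. The log2 difference was 0.66 ± 0.09 (SE; limma, adjusted p = 0.0141). In the IOP libraries, which did not enter this fit, it was covered over 600, 592 and 680 bp at 3mo and 815, 1137 and 878 bp at 18mo.

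The region in an exon of Plvap, which encodes a diaphragm protein of fenestrated endothelium, was also longer at 18mo. It was covered over 324, 308 and 271 bp in untreated and 485, 669 and 626 bp in contralateral retina at 3mo, and over 602, 685 and 632 bp and 710, 1106 and 893 bp at 18mo. The ages did not overlap within either kind. The log2 difference was 0.75 ± 0.12 (SE; limma, adjusted p = 0.0183). In IOP retina it was covered over 768, 725 and 757 bp at 3mo and 1081, 1366 and 1202 bp at 18mo. Of the vessel markers Pecam1, Cdh5, Cldn5, Kdr, Tek, Pdgfrb and Rgs5, Kdr had a region within 2.5 kb of its start called in all libraries, Pdgfrb in 9 and Cldn5 in 4, and the others had one in 0 libraries, and the part of vessel cells in the Plvap result was not tested.

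The intergenic region 58415 bp upstream of Pmepa1, an inhibitor of TGF-β signalling, was shorter at 18mo. Its covered length was 439, 306 and 386 bp in untreated and 1149, 1350 and 925 bp in contralateral retina at 3mo, and 330, 307 and 203 bp and 290, 448 and 419 bp at 18mo. The contralateral libraries were separated by age, but the untreated libraries overlapped. The log2 difference was −1.10 ± 0.19 (SE; limma, adjusted p = 0.0335). In IOP retina it was 798, 1020 and 799 bp at 3mo and 214, 536 and 307 bp at 18mo.

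**Figure D4:**
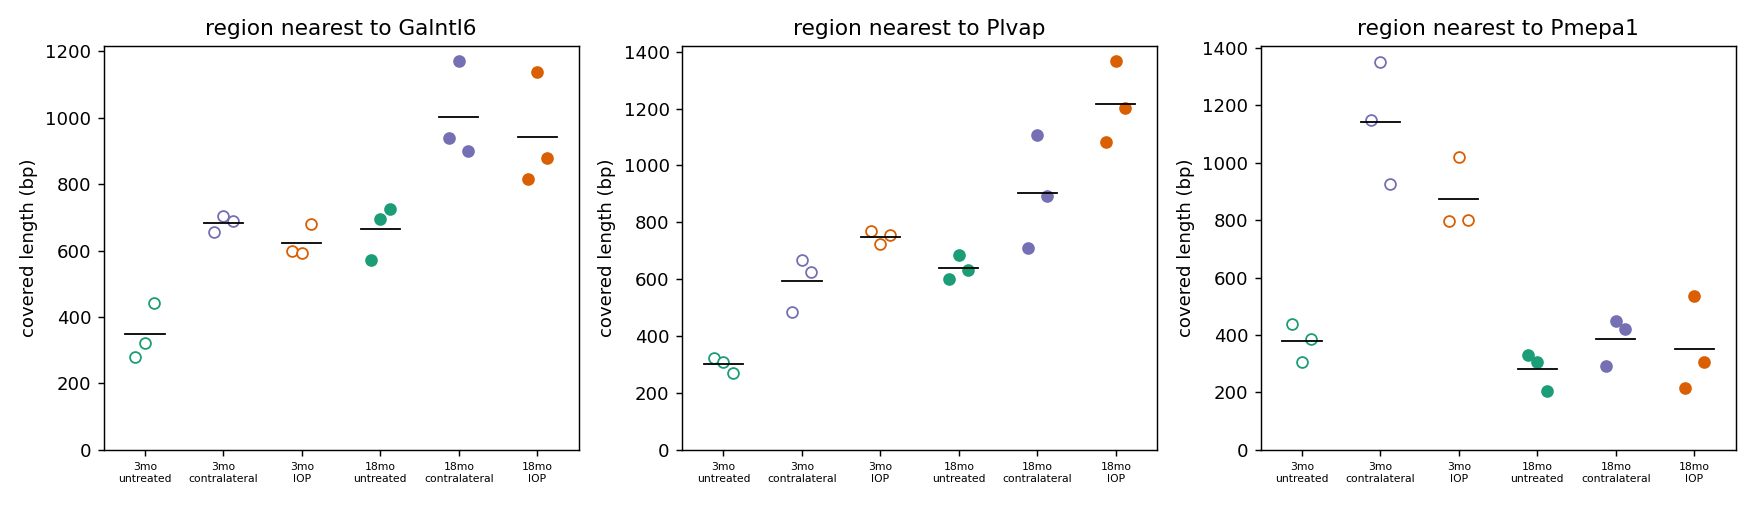
Covered length in bp (vertical axis) of the 3 wide distal regions that passed the age test, in each of the 18 libraries by group. Points are libraries, open at 3mo and filled at 18mo, and bars are group means. In the IOP libraries, which the age test did not use, the Galntl6 region goes from 592 to 680 bp at 3mo to 815 to 1137 bp at 18mo, and the Pmepa1 region from 798 to 1020 bp to 214 to 536 bp.

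In the IOP libraries alone, all 3 regions differed in the direction of the control libraries and without overlap between ages, by 0.70 at Galntl6, 0.80 at Plvap and −1.29 at Pmepa1 on the log2 scale. The IOP lists also helped to set the widths that chose the regions, so that a region long at only 1 age could enter through them. The values in IOP retina are therefore given as a description. IOP retinas are opposite eyes to contralateral retinas, and the labels do not tie libraries to animals, so that these libraries cannot be taken as a separate set of animals. No region passed the adjusted threshold there (limma, adjusted p = 0.341, 0.2 and 0.389), and an exact permutation test of 3 against 3 libraries cannot go below 0.1. Over all 28305 regions tested in the IOP libraries, 9.90% did not overlap between ages, in either direction. Of all 30 regions called for age in the controls, these 3 included, 25 were tested in the IOP libraries. Of those, 24 differed in the same direction and 10 did so without overlap. All 3 calls were lost with the same number of peaks in every library, where the log2 differences were 0.77 at Galntl6, 0.64 at Plvap and −0.71 at Pmepa1. They were also lost when the kind of control was not a term, where the differences were as in the fit with it, and within either kind of control alone, where the log2 differences were 0.56 and 0.72 at Galntl6, 0.61 and 0.85 at Plvap, and −1.56 and −0.69 at Pmepa1 in contralateral and untreated libraries. Leaving out single libraries, the Galntl6 call was kept in all 12 fits. The Plvap call was lost without 18mo untreated replicate 5 (limma, adjusted p = 0.0543), 18mo untreated replicate 6 (0.0682) or 18mo contralateral replicate 2 (0.0584). The Pmepa1 call was kept only without 3mo untreated replicate 5 (0.0433), 18mo untreated replicate 4 (0.0298) or 18mo untreated replicate 5 (0.0454), and its adjusted p was 0.0551 to 0.11 in the other 9 fits. It was also lost in limma with quantile normalization (adjusted p = 0.055), without centring (0.132), with the class of the shortest peak as a term (0.0695), with peaks of −log10 q of at least 2 alone (0.0676) and with a replicate block (0.105).

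IOP was compared with contralateral retina at each age, to ask whether a single pressure episode changed these regions. At 3mo, 0 of 748 wide distal regions passed the adjusted threshold in limma, and 0 of all 26566 regions (0%) did. At an unadjusted p under 0.05, 20 wide distal regions (2.67%) were longer and 22 (2.94%) shorter in IOP retina, and 2.21% and 1.71% of all regions were. The smallest p belonged to the region nearest to Rasgef1b, which was covered over 1530, 1438 and 1371 bp in contralateral and 997, 1210 and 1143 bp in IOP retina (log2 −0.39 ± 0.09 SE; limma, adjusted p = 0.598). The region nearest to Ssbp2, a transcription cofactor, was covered over 652, 642 and 723 bp and over 189, 535 and 310 bp, and that nearest to Dhrs7 over 1250, 1189 and 1273 bp and over 924, 1079 and 852 bp. In each of these 3 regions the IOP libraries lay below the contralateral libraries, but the differences did not pass the correction for all regions. The 3 were named for the smallest p, a choice that favours groups without overlap, and the share of all regions without overlap is not given here.

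At 18mo, 0 of 748 wide distal regions passed in limma (0% of all regions). At an unadjusted p under 0.05, 29 (3.88%) were longer and 50 (6.68%) shorter in IOP retina, compared with 2.80% and 3.31% of all regions. Without 18mo contralateral replicate 2 they were 38 and 38 (798 and 827 of all 26636), and without that library the rule gave 693 regions. Contralateral and IOP lists set most of the widths that chose the regions, so that these shares are a description. The intronic region of Pdzd2, a PDZ-domain protein, was covered over 578, 680 and 712 bp in contralateral and 962, 1185 and 1010 bp in IOP retina (log2 0.76 ± 0.12 SE; limma, adjusted p = 0.165). At 3mo, the same region was covered over 1096, 879 and 865 bp in contralateral and 840, 1149 and 1138 bp in IOP retina, where the 2 groups overlapped. The intronic region of Fig4, a phosphoinositide phosphatase, was covered over 1286, 1706 and 1147 bp in contralateral and 910, 1014 and 904 bp in IOP retina. The intronic region of Syne3, which encodes the nuclear envelope protein nesprin-3, was covered over 1166, 1089 and 1304 bp and over 662, 831 and 491 bp. Their adjusted p was 0.246 each in limma, with log2 differences of −0.45 and −0.80.

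The difference between the IOP effects at the 2 ages passed in 0 wide distal regions and in 0% of all regions (limma). At an unadjusted p under 0.05, 19 (2.54%) were more positive and 31 (4.14%) more negative at 18mo, compared with 1.55% and 2.17% of all regions. The smallest p were at the intronic region of 5430419D17Rik and Fgfr2, the exonic region of Arhgap27, a regulator of small GTPases, and the intronic region of Max, the partner of Myc factors, with log2 differences of 0.67, 1.33 and −0.74 and an adjusted p of 0.9998 each in limma. The Arhgap27 region was covered over 626, 939 and 759 bp in contralateral and 488, 313 and 465 bp in IOP retina at 3mo, and over 738, 799 and 636 bp and 1105, 779 and 910 bp at 18mo. Only the 3mo groups were separated. Naming regions by the smallest p favours such a separation, here and at Max. The Max region was covered over 1206, 1070 and 858 bp and 1051, 1192 and 1272 bp at 3mo, and over 1267, 1446 and 1061 bp and 867, 888 and 642 bp at 18mo, with the separation at 18mo. With the class of the shortest peak as a term in the fit, 0 wide distal regions passed in any of the 3 IOP comparisons, and of all 26566 regions 1 passed at 3mo.

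The 2 kinds of control were set side by side as a description, since the contralateral lists helped to set the widths that chose the regions and the untreated lists hardly did. Relative to each library's median, 323 of 740 (43.6%) differed between untreated and contralateral retina (limma, adjusted p under 0.05), beside 43.4% of all regions. By direction, 134 wide distal regions (18.1%) were longer in untreated retina and 189 (25.5%) shorter, beside 32.3% and 11.0% of all regions, and nothing is read from this, because the rule favours regions that are shorter in untreated retina. Without centring, all regions had a median log2 difference of −0.49 and the wide distal regions one of −0.68, with 0 longer and 704 shorter (18 and 21119 of all regions), so that a longer region here is one that lost less cover than the library's median region. With quantile normalization, 26 were longer and 327 shorter (5014 and 3085 of all regions). The median difference with centring was −0.07, against 0.12 in all regions.

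The kinds of wide distal region are given in this comparison as counts, without a test. Within 1 kb of a tRNA gene, 10 of 19 regions were longer relative to the library and 4 shorter in untreated retina, and the median log2 difference was 0.25. Among CpG-rich regions without a start it was 0.14, with 18 longer and 4 shorter of 47 tested. Of 161 tested regions near another start, 32 were longer and 39 shorter, at a median of −0.03. The CpG-poor regions had a median of −0.10, with 74 longer and 142 shorter of 513. Of the 4173 tested wide regions near a start, 60.77% were longer and 9.154% shorter, at a median of 0.266. Of the 12414 tested narrower distal regions, 12.7% were longer and 13.49% shorter, at a median of −0.0256. More longer than shorter regions were thus not particular to the tRNA and CpG-rich kinds. On the scale of base pairs, the tRNA regions went from 884 bp covered in 3mo untreated to 1274 bp in 3mo contralateral retina, and the CpG-poor regions from 555 to 990 bp.

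**Figure D5:**
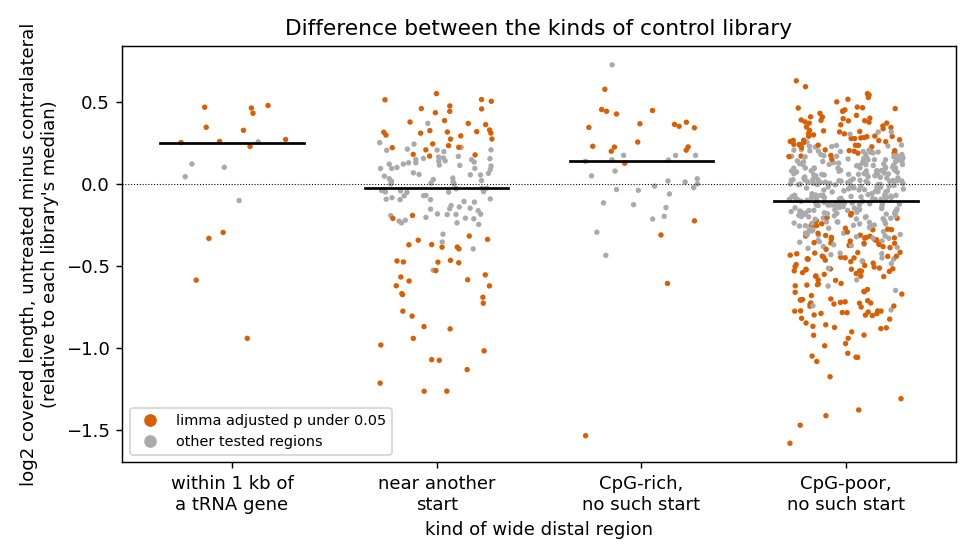
Difference in covered length between untreated and contralateral retina (vertical axis, log2, relative to each library's median) for the tested wide distal regions, by kind of region. Points are regions, coloured where limma gave an adjusted p under 0.05, and bars are medians, at 0.25, −0.03, 0.14 and −0.10 from left to right. Points lie on both sides of 0 in each kind.

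At the extremes, the region nearest to Msra, which repairs oxidized methionine, was covered over 113 to 292 bp in untreated and 549 to 1109 bp in contralateral retina (log2 −1.58 ± 0.24 SE in limma). The regions nearest to Osr2, Wnt11 (in an intron of Uvrag) and Zfat were shorter by −1.54, −1.47 and −1.41 on the same scale. In the other direction, the regions nearest to Ifna13, Gse1 (chr8:120335203-120336547), Arid1a and Mrps23 were longer by 0.63, 0.59, 0.58 and 0.55 relative to the library. In base pairs they hardly moved: the Gse1 region was covered over 989 to 1178 bp in untreated and 1051 to 1181 bp in contralateral retina. Without centring, the differences at Gse1, Arid1a and Mrps23 turned slightly negative, and none of the 4 passed. The difference of the age effect between the 2 kinds of control passed in 0 wide distal regions (limma) and 0% of all regions. At an unadjusted p under 0.05 it did so in 56 (7.57%) and 37 (5.00%) wide distal regions by direction, compared with 2.98% and 4.73% of all, and the smallest adjusted p was 0.210.

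The 33 regions that were not called everywhere were mostly weak. Their mean percentiles lay between 9.97 and 50.0. Of these, 15 were missed by 1 library only, 5 by 2, and 8 were called in 7 to 12 libraries. The fewest calls, 7, belonged to an intronic region of Foxo1, which was found in 0 untreated libraries of 3mo and 0 of 18mo. A region between genes nearest to Fam43a, 95.6% repeat-masked, was called in 9 libraries, 3 of them 18mo untreated and 0 of them 18mo IOP, and that in an intron of Scube2, 87.0% repeat-masked, was also called in 9. A call or its absence could be tested for age in 7 of the 33 regions, of 9868 regions in all, and 0 passed by Fisher's exact test (0% of all). Only the region nearest to Bri3, in an intron of Baiap2l1, had an unadjusted p under 0.05. It was called in 1 of 6 control libraries at 3mo and 6 of 6 at 18mo (exact p = 0.0152, adjusted 0.424), while 3.19% of all tested regions were called more often and 0.385% less often at 18mo at that level. For IOP, 3 regions could be tested by an exact test stratified by age, 0 passed (0% of all) and 0 had an unadjusted p under 0.05, with a smallest adjusted p of 0.785, while 1.62% of all tested regions were called more often and 3.43% less often at that level. A region without a call may have been open below the caller's threshold.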

How the data were processed

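ATAC-seq peak lists of 18 mouse retina libraries were used, 1 list per library and 3 libraries per group. The authors called peaks with MACS2, and the largest q in the deposited lists matched a limit of 0.05. The labels also list STAR 2.7.8a, HOMER and bedtools 2.29.2, and the build mm10. The deposited −log10 q of each peak ranked it within its list, and the deposited fold, the caller's ratio of summit pileup to local background, was used only as a description. The study tested read counts. Peak lists hold none, so the read depth is unknown, and covered length is the extent of called peaks and not a measure of reads. Trimming, alignment settings and any shift for the transposase were not given in the sources used here. No column of another series was present.

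Peaks were merged with Python 3.11.15, pandas 2.3.3 and numpy 2.4.6, and 4 wide regions on contigs without an annotated start were left out. Sequence, repeats and tRNA genes were read from GRCm38, GENCODE M21 and RefSeq, and mitochondrial-like sequence was searched with BLAST 2.17.0. The log2 covered length, minus the library's median, was fitted with limma 3.58.1 in R 4.3.3 (trend and robust) over all regions called in every library of the fit, and adjusted by Benjamini-Hochberg over all of them. Calls were tested with exact tests in scipy 1.17.1, two-sided, adjusted over the regions where the exact p could fall under 0.05. No set test was made.

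On simulated data over 27019 regions for age, limma recovered 37% of changes of 0.5 and 83% of changes of 1 on the log2 scale, with 8 false calls. For IOP at 18mo, over 26566 regions, it recovered 14% and 56%, with 0 false calls. The exact tests recovered 0% at the adjusted threshold, since too few libraries were available.

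Regions named were the 6 widest, the 6 strongest, up to 4 per direction that passed each test (otherwise the 3 with the smallest p), up to 3 per gene list, those of the 6 genes with most regions, those next to the limits of the rule, and the 3 with the largest and smallest spread. Further regions of the rod, transcription factor and stress lists, the tRNA regions, the 4 kinds of region, and those nearest to Foxo1, Fam43a and Scube2 were named after their values were seen. The members and gene lists were chosen with earlier results of these data known. Alternatives covered the width and distance limits, peak strength, scaling, filters, single libraries, the kind of control and the motif window. Values at some regions are not reported here.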

Additional observations from a re-analysis of the deposited data

Results flagged for a closer look

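The intronic region of 5430419D17Rik and Fgfr2 (chr7:131222727-131223997) was the item with opposite IOP differences at the 2 ages, without overlap at either. At 3mo it was covered over 961, 953 and 812 bp in contralateral and 694, 720 and 650 bp in IOP retina, and at 18mo over 815, 808 and 690 bp and 819, 943 and 858 bp. The difference between the 2 effects was 0.67 on the log2 scale, and the test of that difference did not pass (limma, adjusted p = 0.9998). Such a pattern was seen in 2 of 748 wide distal regions (0.267%) and in 81 of 26566 regions in all (0.305%).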

How the results depend on the processing

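The covered length of a region depends on how each library's peaks were called, and no read counts were at hand to set beside it. The age result rested on few regions: 3 passed (30 of all), and 0 passed with the same number of peaks in every library (14 of all), with no term for the kind of control (9 of all), within contralateral controls (0 of all), within untreated controls (6 of all), and in the IOP libraries alone, an alternative chosen after seeing the data (0 of all). Without 1 control library at a time, 1 to 4 passed, the 1 without 18mo untreated replicate 6. With a replicate block 2 passed, Plvap and Galntl6, while Pmepa1 had an adjusted p of 0.105 in limma. Same-numbered 3mo and 18mo controls had correlations of deviations of −0.265 to 0.042 and contralateral and IOP libraries of −0.159 to 0.218. The latter were positive where both libraries had the same class of shortest peak and negative where the classes differed. Whether the numbers pair the samples can therefore not be told from these values. The kind of control has no blocked fit, because numbers 1 to 3 are contralateral and 4 to 6 untreated. The count for the kind of control went from 323 to 704 without centring, and to 277 to 316 without 1 library. Without centring, the log2 differences at Gse1, Arid1a and Mrps23 were −0.0149, −0.0306 and −0.0571, a change made by the alternative's own construction. The counts of 0 wide distal regions for IOP and for calls stayed at 0 in every alternative run. Over all regions, IOP at 18mo gave 6 and IOP by age 3 without 18mo IOP replicate 1, IOP at 18mo gave 1 with the same number of peaks, and IOP at 3mo gave 1 with the class of the shortest peak, without 3mo contralateral replicate 2 or without 3mo IOP replicate 1.

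The number of wide distal regions was 1784 at 1000 bp, 241 at 1500 bp, 38 when untreated libraries alone were merged (chosen after seeing the data), and 693 to 768 without 1 library, lowest without 18mo contralateral replicate 2. The share called everywhere was 91.3% at 1000 bp. The share nearest to a listed gene was 1.66% at 1500 bp and 1.82% by the gene that holds the summit. The share with TAATCC was 32.9% in 500 bp, beside 26.3% of the narrower distal regions and 31.0% of those called in every library. Of the other alternatives for these results, 57 stayed within their limits.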

Other observations

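The 13 wide distal regions that overlapped a VISTA enhancer, an element tested for activity in transgenic embryos, were nearest to Btg2, Actg1, Irf2bpl, Myh7, Ephb3, Ephb2, Gm6096, Gse1, Anp32a, Pias1, Nedd4, Rpl14 and Ddx3x. Ephb2 and Ephb3 encode receptors for ephrins, the guidance molecules of axons. Their mean percentiles ran from 60.6 at Anp32a to 95.8 at Actg1, with 94.3 at Ephb3 and 83.5 at Ephb2. Of the 13, 9 lay between genes and 4 in introns, and their summits lay from 10120 bp (Myh7) to 99843 bp (Ephb3) from a protein-coding start. These regions were named after their values were seen.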
